A study of Mus musculus with 6 samples.

Results

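Disease-associated microglia are a state in which these brain macrophages switch on a shared set of genes around amyloid plaques, demyelinated axons and dying cells, while genes of the resting state are switched off. Many of the induced genes encode secreted or cell-surface proteins, and full induction is known to depend on the lipid receptor TREM2 and its adaptor TYROBP. The genes described here are 10 of that set, given as a list of symbols that was chosen with earlier results of these data known. The secreted products are Mamdc2 (a matrix proteoglycan), Spp1 (osteopontin), Lgals3 (galectin-3), Cst7 (cystatin F) and Igf1 (insulin-like growth factor 1). The surface and endolysosomal membrane proteins are Gpnmb, Cd63, Cd9, Cd68 and Axl. All 10 were present in the count table of 17872 genes, and all 10 passed the filter on low counts, which kept 13403 genes.

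The libraries came from BV2, a mouse microglial cell line immortalised with oncogenes. Of the 6, 3 were wild-type controls, and the label of the other 3 was Tfam knockout. By the protocol given, editing was by CRISPR-Cas9, and puromycin was given throughout the culture that followed, at 2 µg/mL. Tfam encodes the factor that packages and transcribes mitochondrial DNA, and the comparison asks how its loss alters the microglial transcriptome. The labels leave unstated if a single clone or a mixed pool was used, what the control cells carried, whether controls received puromycin, and whether replicates were separate cultures. The p-values therefore measure the spread between these libraries, which may be technical. Library totals ran from 13850691 to 28418133 counts. Tfam mRNA itself was not lower in the knockout-labelled libraries: 39.0, 38.5 and 37.1 CPM in controls 1 to 3 against 41.0, 42.7 and 43.2 CPM (log2 fold change 0.14 ± 0.0869 SE, adjusted p = 0.193, edgeR), so each direction below is that of the libraries as labelled. CPM are counts per 1e+06 counts after TMM scaling. With library totals alone (0.24, adjusted p = 0.0403, edgeR) and in the authors' log2 table (0.24, adjusted p = 0.0349, limma) the Tfam level passed as higher.

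The microglial label was checked against markers. Of 13 microglia and macrophage markers, 9 reached 1 CPM in all 6 libraries, among them Csf1r, Trem2, Tyrobp, Spi1 and Ptprc. Of 10 tested, 6 were lower and 2 higher, where 22.9% of all tested genes were lower and 21.3% higher. Higher were Cd14 (log2 fold change 1.13, from 168 ± 12.1 to 368 ± 21.2 CPM, adjusted p = 5.89e-09, edgeR) and Adgre1 (0.61, from 265 ± 29.7 to 406 ± 7.87 CPM, adjusted p = 1.5e-05, edgeR). The summed level of the list, here per library total, was 2310 to 2391 CPM in controls and 1953 to 2088 CPM in the knockout-labelled libraries. The resting-state marker Tmem119 had 11, 8 and 9 counts in controls and 8, 0 and 0 in the knockout-labelled libraries, too few to test, and P2ry12 was not analysed here. Markers of neurons, fibroblasts and lymphocytes reached 1 CPM in all 6 libraries for 0 of 8, 0 of 7 and 0 of 6 genes, with summed levels of at most 3.69 CPM. Astrocyte markers summed to 191 to 218 CPM in controls and 80.5 to 89.1 CPM in the knockout-labelled libraries, nearly all of it Aldoc, while Gfap, Aqp4 and Aldh1l1 were not analysed here. Oligodendrocyte markers summed to 62.1 to 62.3 against 38 to 43.0 CPM, most of it Cnp (39.7 against 26.5 CPM) and Mbp (20.4 against 8.91 CPM). Mog, Mag and Olig2 had 0 to 11 counts per library, and Olig1 and Sox10 were not analysed here. Endothelial markers summed to 11.1 to 11.9 against 7.28 to 10.1 CPM, and in controls most of it was Kdr (8.11 against 3.65 CPM). Osteoclast markers, an allied macrophage fate in which several of the 10 genes are also known to be abundant, summed to 1593 to 1625 against 1103 to 1221 CPM. These shifts move with the comparison, and their part in the results was not tested. In bulk RNA, fewer cells that express a gene and less of its RNA per cell cannot be told apart.

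Of the 10 genes, 7 were lower and 1 was higher in the knockout-labelled libraries at an adjusted p below 0.05 (edgeR quasi-likelihood test, adjusted over all genes tested), and 2 did not pass. Across the transcriptome 44.2% of tested genes were called, 21.3% higher and 22.9% lower. Each count of called genes in a related list below is to be read beside these shares. Because the 10 genes and all lists were chosen with earlier results of these data known, no such count is an independent test. Higher genes made up 48.2% of all calls, and 61.8% with library totals in place of TMM. The median log2 fold change was -0.48 over the 10 genes and 0.00 over all genes tested. The groups did not overlap for 8 of the 10, against 52.9% of all tested genes. The losses were unequal: Mamdc2 fell by 3.05 on the log2 scale, Cd9, Lgals3, Axl and Igf1 fell by 0.62 to 1.03, and Cd68 and Cd63 fell by 0.33 and 0.25. Gpnmb rose by 0.28, and Spp1 and Cst7 lay at -0.05 and 0.04.

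**Figure D1:**
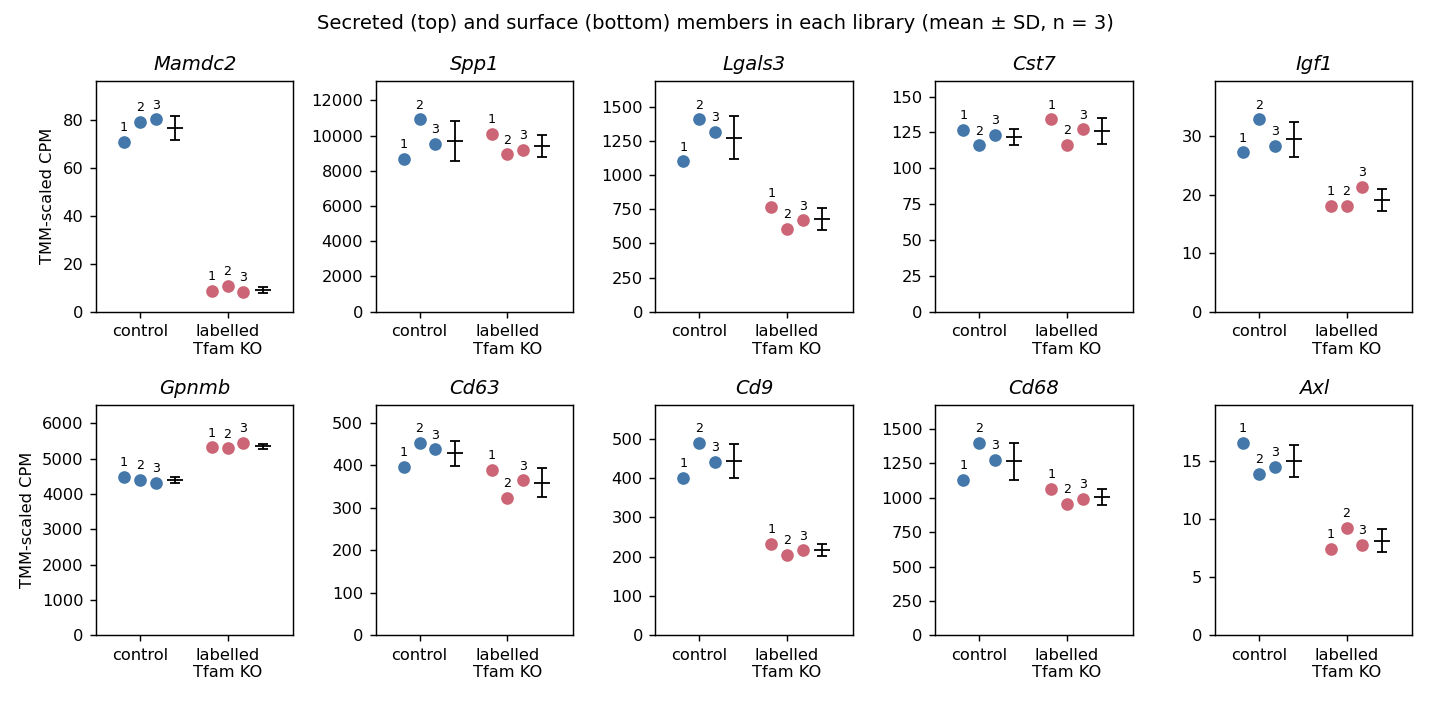
TMM-scaled CPM of each of the 10 genes in each library (points, numbered by replicate; blue, control; red, labelled Tfam knockout), with the mean ± SD of each group (n = 3) beside the points; each vertical axis starts at 0. Mamdc2 drops from 70.9 to 80.1 CPM in controls to 8.23 to 10.6 CPM, Cd9 and Lgals3 separate clearly, and the groups of Spp1 and Cst7 overlap.

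**Figure D2:**
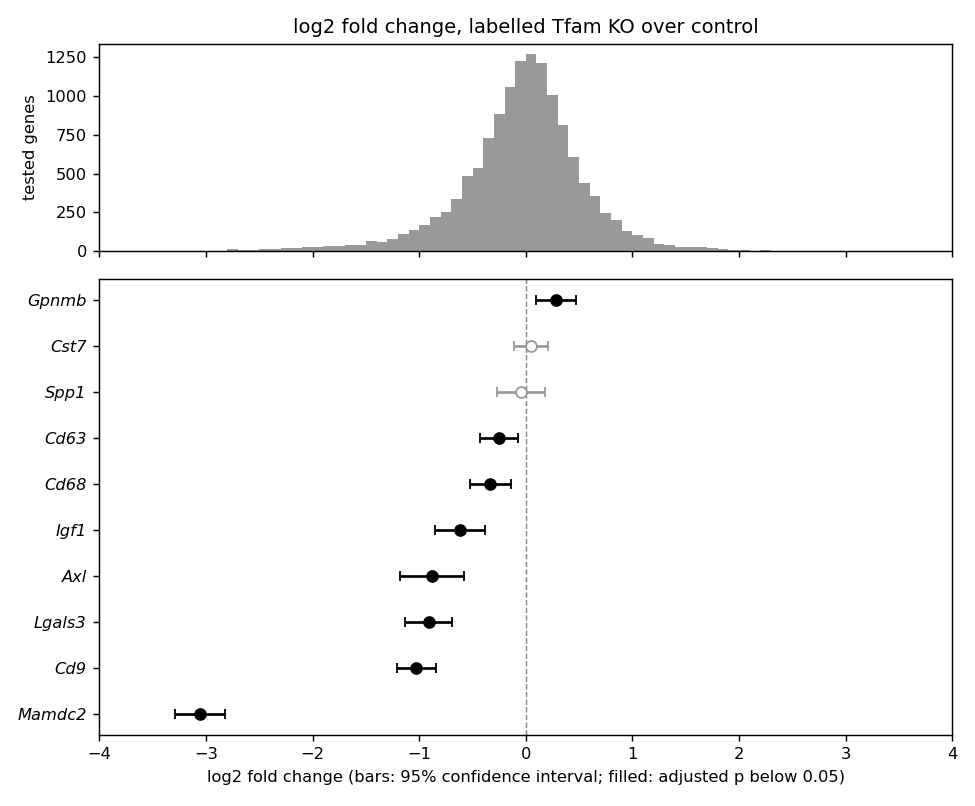
Lower panel: log2 fold change of each of the 10 genes with its 95% confidence interval (filled, adjusted p below 0.05; open, not called). Upper panel: the same quantity for tested genes between -4 and 4 as a histogram. Mamdc2 at -3.05 lies in the far lower tail, while Spp1 and Cst7 sit at the centre.

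**Figure D3:**
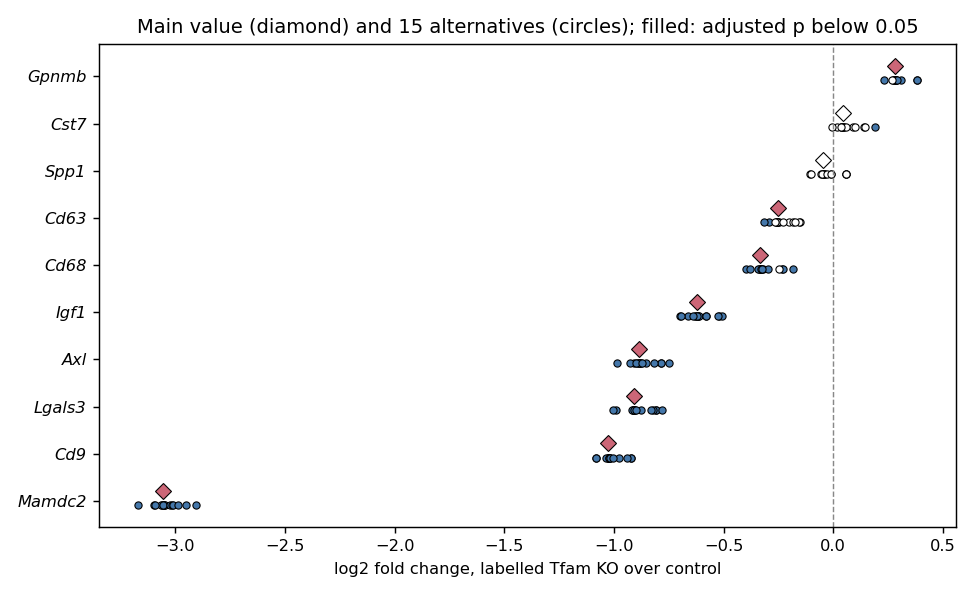
Log2 fold change of each of the 10 genes in the reported analysis (diamonds) and under 15 alternative settings (circles; filled, adjusted p below 0.05; open, above it). Mamdc2 stays between -3.17 and -2.91, and the open circles lie at Spp1, Cst7, Cd63, Cd68 and Gpnmb.

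The stretches upstream of the genes are shown first, because members that fell side by side invite the question of what their promoters share. Of the 10 genes, 9 had an entry in the RefSeq promoter table (GRCm38.p6), and Mamdc2 had none. The 250 bases before the annotated start were searched on both strands for 6 motifs: the M-box TCACATG and CLEAR core GTCACGTG, known as sites of the MITF/TFE family, the E-box CACGTG, the AP-1 motif TGANTCA, the PU.1 core GAGGAA and the hypoxia core NACGTG. The last overlaps the E-box and the CLEAR core, since each holds ACGTG. The sequences below are those of the 4 genes with an entry that fell by 0.62 or more, of Cd68, which alone held more than 1 AP-1 match, and of Gpnmb, the only one that rose, each 5′ to 3′ along its gene with motif matches in capitals.
Lgals3, chr14:47373610-47373859, plus strand: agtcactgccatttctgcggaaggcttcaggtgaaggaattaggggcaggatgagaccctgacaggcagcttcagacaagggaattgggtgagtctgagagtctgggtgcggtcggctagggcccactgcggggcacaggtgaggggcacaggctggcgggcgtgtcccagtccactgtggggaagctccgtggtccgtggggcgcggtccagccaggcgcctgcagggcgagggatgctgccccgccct
Cd9, chr6:125494761-125495010, minus strand: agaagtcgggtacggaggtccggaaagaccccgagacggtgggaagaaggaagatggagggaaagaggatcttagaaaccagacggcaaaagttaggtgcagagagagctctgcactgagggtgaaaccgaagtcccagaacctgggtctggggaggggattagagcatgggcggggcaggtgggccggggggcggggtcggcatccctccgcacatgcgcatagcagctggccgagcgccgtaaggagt
Axl, chr7:25788734-25788983, minus strand: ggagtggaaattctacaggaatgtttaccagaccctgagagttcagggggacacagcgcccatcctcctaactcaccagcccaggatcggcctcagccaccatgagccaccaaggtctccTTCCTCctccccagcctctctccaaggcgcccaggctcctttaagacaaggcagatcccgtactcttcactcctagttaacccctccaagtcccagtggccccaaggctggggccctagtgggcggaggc
Igf1, chr10:87860861-87861110, plus strand: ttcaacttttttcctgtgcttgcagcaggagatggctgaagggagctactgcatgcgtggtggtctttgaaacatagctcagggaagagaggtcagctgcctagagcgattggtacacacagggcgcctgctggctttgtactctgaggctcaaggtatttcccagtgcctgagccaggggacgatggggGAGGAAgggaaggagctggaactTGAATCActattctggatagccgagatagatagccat
Cd68, chr11:69666171-69666420, minus strand: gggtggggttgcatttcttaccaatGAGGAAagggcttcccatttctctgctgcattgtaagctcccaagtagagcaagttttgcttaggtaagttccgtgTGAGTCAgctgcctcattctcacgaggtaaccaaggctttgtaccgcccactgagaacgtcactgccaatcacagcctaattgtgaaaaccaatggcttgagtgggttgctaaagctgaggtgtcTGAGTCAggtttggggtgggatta
Gpnmb, chr6:49036268-49036517, plus strand: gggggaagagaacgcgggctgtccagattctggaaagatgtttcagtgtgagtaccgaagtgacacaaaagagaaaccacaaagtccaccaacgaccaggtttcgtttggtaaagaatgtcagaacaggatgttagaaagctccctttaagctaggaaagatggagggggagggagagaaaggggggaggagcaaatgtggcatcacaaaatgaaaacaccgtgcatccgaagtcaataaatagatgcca

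No motif was common to the genes that fell. Igf1 held a PU.1 core 60 to 55 bases and an AP-1 match 37 to 31 bases before its start. Cd68 held a PU.1 core at 225 to 220 and AP-1 matches at 149 to 143 and at 24 to 18. Axl held 1 PU.1 core on the opposite strand, and Lgals3, Cd9, Gpnmb and Cst7 held no match to any of the 6 motifs. Cd63 held a pair of PU.1 cores and 1 hypoxia core. The first of the Spp1 entries held 1 PU.1 core and the second held no match. Among all 32851 promoter entries, 23.3% held a PU.1 core, 6.75% an AP-1 match, 16.5% a hypoxia core, 6.02% an E-box, 3.50% an M-box and 1.85% a CLEAR core. These matches are letters in a window and not measured sites.

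Among the secreted products, Mamdc2 fell furthest. Mamdc2 encodes a secreted proteoglycan with MAM domains that is known from plaque-associated microglia. Its levels were 70.9, 79.0 and 80.1 CPM in controls 1 to 3 and 8.73, 10.6 and 8.23 CPM in knockout-labelled libraries 1 to 3, from raw counts of 1995, 1212 and 1132 against 185, 185 and 118. Every control lay above every knockout-labelled library by several fold. The fold was 0.12 (95% confidence interval 0.102 to 0.142), a log2 fold change of -3.05 ± 0.112 (SE; adjusted p = 1.71e-12, edgeR). Only 0.269% of tested genes fell as far or further. Of 8 other listed MAM-domain genes tested, 7 were not called. The semaphorin and VEGF co-receptor Nrp2 rose, with a log2 fold change of 1.11, from 178, 163 and 166 CPM to 357, 373 and 368 CPM (adjusted p = 2.46e-09, edgeR). The relatives that could be tested thus held no called fall beside that of Mamdc2.

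Lgals3 encodes galectin-3, a β-galactoside-binding lectin that is secreted and also binds damaged lysosomes. Its levels were 1101, 1408 and 1319 CPM in controls and 764, 604 and 668 CPM in the knockout-labelled libraries. The groups did not overlap, and the lowest control exceeded the highest knockout-labelled library. This was a log2 fold change of -0.91 ± 0.105 (SE; fold 0.532, 95% confidence interval 0.457 to 0.620; adjusted p = 2.24e-06, edgeR). Of 6 other tested genes in the galectin list, 2 fell, where 22.9% of all tested genes did. The list includes Lgals3bp, a galectin-3-binding protein that is not itself a galectin. Lgals1, the other abundant galectin, fell by 0.73, from 474, 680 and 664 CPM to 414, 324 and 353 CPM (adjusted p = 9.25e-05, edgeR). Lgals2, at 2.82 ± 0.551 CPM in controls, fell by 1.11 (adjusted p = 0.0113, edgeR), a call lost without control 2 (adjusted p = 0.0646, edgeR). The ratio of Lgals3 to Lgals1 counts, in which library scaling cancels, was 2.32, 2.07 and 1.99 in controls and 1.85, 1.86 and 1.89 in the knockout-labelled libraries. With 3 against 3 an exact two-sided permutation test cannot go below p = 0.1, and this ratio reached it (0.15 adjusted over 6 such ratios).

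Igf1 encodes a growth factor that microglia are known to supply to neurons and oligodendrocytes. It was a low-level transcript, at 27.2, 32.9 and 28.3 CPM in controls and 18.1, 18.0 and 21.3 CPM in the knockout-labelled libraries. The groups did not overlap. Igf1 fell, with a log2 fold change of -0.62 ± 0.112 (SE; fold 0.650, 95% confidence interval 0.552 to 0.766; adjusted p = 0.00024, edgeR). Of 9 tested genes of the IGF1 axis, 3 fell and 1 rose, a share called near the 44.2% of all tested genes. The binding protein Igfbp4 (-0.53), the insulin receptor substrate Irs2 (-0.50) and the receptor Igf1r (-0.26) were the 3 that fell, and the IGF-binding-protein protease Pappa2 (1.35) was the 1 that rose. Igf1r stood at 74.2, 67.6 and 69.7 CPM in controls and 51.9, 68.2 and 56.4 CPM in the knockout-labelled libraries, so its groups overlapped. Its call was lost under 8 of 15 alternatives (adjusted p up to 0.223), among them without control 1, 2 or 3 or knockout-labelled 1 or 3. Pappa2 had 3 to 33 counts per library and its call was lost under 5 of 14 alternatives (adjusted p up to 0.153), among them without control 2 or 3 or knockout-labelled 1 or 3. The insulin receptor Insr was at 55.4 ± 2.68 and 58.3 ± 1.84 CPM (log2 fold change 0.08, adjusted p = 0.47, edgeR).

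Spp1 encodes osteopontin, a secreted phosphoprotein that binds integrins and CD44. It was among the most abundant transcripts of these cells, ranking 4 of 13403 tested genes by mean CPM. Its levels were 8677, 10910 and 9532 CPM in controls and 10102, 8932 and 9186 CPM in the knockout-labelled libraries. The knockout-labelled values fell inside the control range. The log2 fold change was -0.05 ± 0.108 (SE; adjusted p = 0.765, edgeR), and the 95% confidence interval of the fold, 0.828 to 1.13, bounds any difference. The sign of this value turned without control 2 (0.06, adjusted p = 0.719, edgeR) and with library totals alone (0.06). Of 7 tested osteopontin receptors, 2 fell and 2 rose. The integrin subunit Itgav fell by 0.33, from 210 ± 13.1 to 167 ± 17.8 CPM (adjusted p = 0.0038, edgeR), and Itgb3 fell by 1.30 from 1.11 ± 0.208 CPM. The call of Itgb3 was lost under 6 of 14 alternatives (adjusted p up to 0.0954), among them DESeq2 and without control 2 or 3 or knockout-labelled 1, 2 or 3. Itga4 rose by 0.44, from 33.9 ± 3.72 to 46.2 ± 7.59 CPM (adjusted p = 0.00666, edgeR) with overlapping groups, and Itgb5 rose by 0.34, a call lost without control 3 (adjusted p = 0.0635, edgeR). Cd44 was at 269 ± 15.4 and 298 ± 2.06 CPM (log2 fold change 0.14, adjusted p = 0.12, edgeR), and passed as higher with library totals (0.25) and in the authors' log2 table.

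Cst7 encodes cystatin F, an inhibitor of cysteine cathepsins inside endolysosomes and a core marker of the disease-associated state. Its levels were 127, 116 and 123 CPM in controls and 134, 116 and 127 CPM in the knockout-labelled libraries. Knockout-labelled 2 lay within the control range, so the groups overlapped. Knockout-labelled 3 (127.09 CPM) was nearly level with the highest control (126.89 CPM), and knockout-labelled 1 lay above it. The log2 fold change was 0.04 ± 0.0756 (SE; fold 1.03, 95% confidence interval 0.923 to 1.15; adjusted p = 0.673, edgeR). Offsets for transcript length and GC content, added after the data were seen, gave 0.19 (adjusted p = 0.0339, edgeR). Among 13 tested cystatins, cysteine cathepsins and legumain, 8 fell and 1 rose. Cystatin C, Cst3, fell by 0.71, from 350 ± 45.0 to 214 ± 28.9 CPM (adjusted p = 3.07e-05, edgeR), and cystatin B, Cstb, fell by 0.65, from 420 ± 52.8 to 267 ± 30.6 CPM (adjusted p = 4.82e-05, edgeR). The cathepsin Ctsf fell by 1.13, from 39.0 ± 0.691 to 17.8 ± 0.994 CPM (adjusted p = 7.79e-08, edgeR). Stfa1, a stefin with near-identical neighbours and 4 to 47 counts per library, fell by 1.80 (-2.48 without knockout-labelled 3), and the cathepsin Ctsb (0.23) was the 1 that rose. The Stfa1 value is uncertain because reads shared with such copies could have been split in the counting. Without knockout-labelled 3 the Ctsb call was lost (adjusted p = 0.155), as it was under 4 other alternatives, among them without control 3 and without knockout-labelled 1. The ratio of Cst7 to Cst3 counts was 0.425, 0.304 and 0.332 in controls and 0.544, 0.610 and 0.616 in the knockout-labelled libraries (exact two-sided permutation p = 0.1, the smallest possible; 0.15 adjusted).

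Among the surface proteins, the tetraspanins Cd9 and Cd63 differed in size of response. Tetraspanins organise membrane microdomains with integrins. CD9 lies mainly at the plasma membrane, and CD63 in late endosomes, lysosomes and exosomes. Cd9 was at 400, 488 and 441 CPM in controls and 233, 203 and 216 CPM in the knockout-labelled libraries. The lowest control exceeded the highest knockout-labelled library. The log2 fold change was -1.03 ± 0.0866 (SE; fold 0.491, 95% confidence interval 0.433 to 0.557; adjusted p = 5.83e-08, edgeR). In GENCODE M21 a non-coding gene on the opposite strand, Gm26728, shares 218 exonic bases with Cd9. It had 6 to 14 counts per library, against 3093 to 11263 for Cd9. How reads on the shared bases were assigned is not known, so these counts do not measure any loss of Cd9 reads there. The annotation also places Gm42793 on 309 exonic bases of Spp1, on the same strand, and it was not analysed here.

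Cd63 was at 395, 452 and 437 CPM in controls and 390, 323 and 365 CPM in the knockout-labelled libraries. Control 1 and knockout-labelled 1 nearly touched. Cd63 had a log2 fold change of -0.25 ± 0.0857 (SE; fold 0.839, 95% confidence interval 0.740 to 0.951; adjusted p = 0.0233, edgeR). That call did not hold when control 2, control 3, knockout-labelled 2 or knockout-labelled 3 was left out (highest adjusted p = 0.113, edgeR, without control 2), nor with library totals (-0.15, adjusted p = 0.123), in the authors' log2 table (-0.16, adjusted p = 0.105, limma), with the length and GC offsets (-0.17, adjusted p = 0.0615) and with the replicate number as a block (adjusted p = 0.0663). The ratio of Cd9 to Cd63 counts was 1.01, 1.08 and 1.01 in controls and 0.598, 0.630 and 0.592 in the knockout-labelled libraries. The ratio was lower in all 3 knockout-labelled libraries (exact two-sided permutation p = 0.1, the smallest possible; 0.15 adjusted over 6 ratios).

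Of 19 other tetraspanins tested, 8 fell and 11 were not called. Of all tested genes, 44.2% were called and 22.9% fell. Cd81, which shares partners with CD9, fell by 1.2, from 114, 144 and 125 CPM to 61.6, 51.6 and 53.2 CPM (adjusted p = 2.5e-08, edgeR). Cd151 (-0.47), Tspan32 (-0.45) and Tspan7 (-0.31) fell less, and the Cd151 call was ended by leaving out control 2 or knockout-labelled 3 (highest adjusted p = 0.0685, edgeR). Of 7 tested partners, 3 fell: the growth factor precursor Hbegf (-0.73), the laminin-binding integrin Itga6 (-0.48) and the ESCRT adaptor Pdcd6ip (-0.30).

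Gpnmb was the only one of the 10 that rose. Gpnmb encodes a heavily glycosylated transmembrane protein of endosomes and the cell surface, known to be driven by MITF/TFE factors under lysosomal load. Its levels were 4496, 4392 and 4324 CPM in controls and 5320, 5291 and 5441 CPM in the knockout-labelled libraries. It varied least between replicates, with a coefficient of variation of 1.97% in controls and 1.48% in the knockout-labelled libraries, and the groups did not overlap. The fold was 1.22 (95% confidence interval 1.07 to 1.38), a log2 fold change of 0.28 ± 0.0889 (SE; adjusted p = 0.0162, edgeR). Of all tested genes, 25.4% rose by as much or more. The call was lost without control 3 (adjusted p = 0.0517), without knockout-labelled 3 (adjusted p = 0.097) and with the replicate number as a block (adjusted p = 0.0794, edgeR). The ratio of Gpnmb to Spp1 counts was 0.518, 0.403 and 0.454 in controls and 0.527, 0.592 and 0.592 in the knockout-labelled libraries (exact two-sided permutation p = 0.1, the smallest possible; 0.15 adjusted). Of 5 tested genes listed as Gpnmb relatives, partners or MITF/TFE factors, 2 fell. The factor Mitf fell by 0.59, from 65.0, 60.2 and 61.7 CPM to 38.6, 42.5 and 43.4 CPM (adjusted p = 2.79e-05, edgeR), and Sdc4, a syndecan, fell by 0.76, from 201 ± 7.24 to 119 ± 6.14 CPM. Tfeb did not pass (32.2 against 28.6 CPM, adjusted p = 0.22, edgeR). Gpnmb and Mitf thus differed in direction in these libraries.

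Cd68 encodes macrosialin, a LAMP-family glycoprotein of macrophage endosomes and lysosomes. Its levels were 1127, 1395 and 1271 CPM in controls and 1063.5, 953 and 993 CPM in the knockout-labelled libraries. The groups did not overlap, with control 1 close above knockout-labelled 1. Its log2 fold change was -0.33 ± 0.0919 (SE; fold 0.793, 95% confidence interval 0.694 to 0.907; adjusted p = 0.00693, edgeR). It missed the threshold without control 2 (-0.25, adjusted p = 0.0523, edgeR), and shrank to -0.18 with the length and GC offsets (adjusted p = 0.0394). Of 6 other LAMP-family and NPC genes tested, 1 rose and 5 were not called. Lamp1 rose by 0.29, from 283, 239 and 233 CPM to 306, 309 and 307 CPM (adjusted p = 0.00827, edgeR), a call lost without control 3 (adjusted p = 0.0558).

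Axl encodes a TAM receptor tyrosine kinase that binds phosphatidylserine on dying cells through the bridging ligand GAS6. It was the least abundant of the 10 by CPM, at 16.5, 13.9 and 14.4 CPM in controls and 7.41, 9.25 and 7.74 CPM in the knockout-labelled libraries. The groups did not overlap. Raw counts were 464, 213 and 204 against 157, 161 and 111. For Axl the log2 fold change was -0.88 ± 0.142 (SE; fold 0.542, 95% confidence interval 0.440 to 0.667; adjusted p = 8.03e-05, edgeR). Mertk, its paralog, fell by 0.93, from 22.9, 21.9 and 26.7 CPM to 11.5, 12 and 14.1 CPM (adjusted p = 1.08e-05, edgeR). The ratio of Axl to Mertk counts was 0.631 ± 0.0904 in controls and 0.654 ± 0.111 in the knockout-labelled libraries (mean and SD of 3; p = 0.7 by an exact two-sided permutation test). The sheddase Adam17, which releases TAM ectodomains, fell by 0.51, from 297 ± 7.07 to 209 ± 12.3 CPM (adjusted p = 2.79e-05, edgeR). Tyro3 and the ligand Gas6 were not analysed here, and the ligand Pros1 had 0 to 20 counts per library, too few to test.

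Per transcript length the 10 genes spanned more than 3 orders of magnitude. Levels were divided by the length of the longest coding transcript in GENCODE M21 and are given in CPM per kb. In controls the order was Spp1 (6441 ± 748), Gpnmb (1190 ± 23.4), Cd68 (1028 ± 109), Lgals3 (899 ± 111), Cd63 (386 ± 26.5), Cd9 (361 ± 35.8), Cst7 (124 ± 5.65), Mamdc2 (22.5 ± 1.47), Igf1 (4.18 ± 0.423) and Axl (3.50 ± 0.323; SD, n = 3 each). Cd68 and Lgals3, Cd63 and Cd9, and Igf1 and Axl were neighbours whose control libraries overlapped. In the knockout-labelled libraries Spp1 (6242 ± 409), Gpnmb (1446 ± 21.4) and Cd68 (815 ± 45.7) led again. Below them Lgals3 (478 ± 56.7) separated from Cd68, and Cd9 (177 ± 12.3) from Cd63 (324 ± 30.6). Mamdc2 (2.69 ± 0.37) came down to the level of Igf1 (2.72 ± 0.267), and Axl (1.91 ± 0.23) was last. With the merged exon length of all transcripts the middle of the order changed: Gpnmb moved from place 2 to 4 in controls and Cd63 from 5 to 7.

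**Figure D4:**
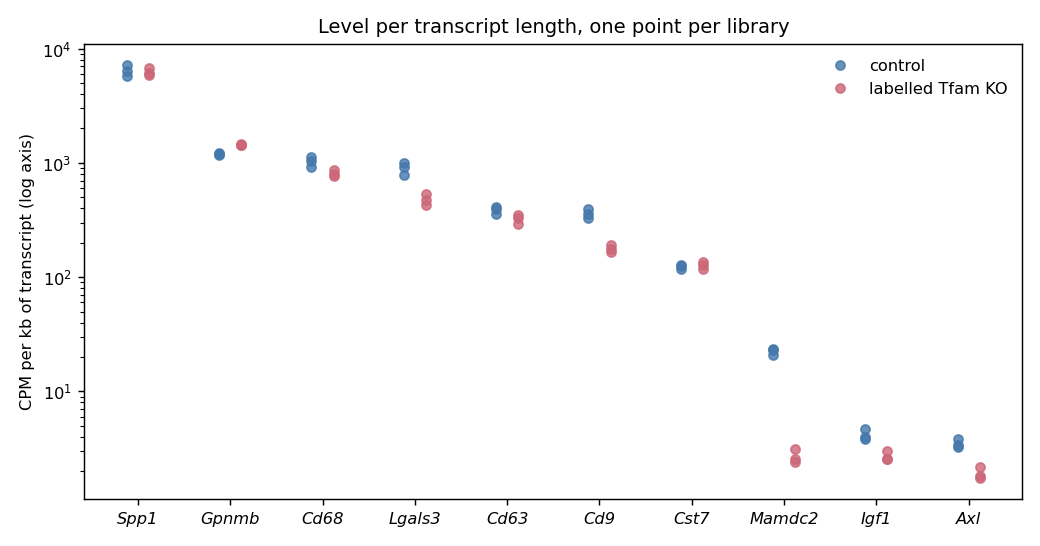
CPM per kb of coding transcript for each gene on a log axis, 1 point per library (blue, control; red, labelled Tfam knockout), ordered by the control mean. Spp1 leads at 6441 CPM per kb in controls, and Mamdc2 drops from 22.5 to 2.69 to join Igf1 and Axl.

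Spp1 and Gpnmb carried most of the reads of the set, and their share grew. The 10 genes together took 1.63%, 1.81% and 1.70% of all counts in controls and 1.83%, 1.74% and 1.76% in the knockout-labelled libraries, so the summed share overlapped between groups. Spp1 and Gpnmb made up 80.1%, 79.3% and 78.9% of those reads in controls and 85.5%, 86.4% and 85.9% in the knockout-labelled libraries. The other 8 genes took 0.323%, 0.374% and 0.358% of all counts in controls and 0.266%, 0.236% and 0.249% in the knockout-labelled libraries. A sum over the set is thus set mainly by the 2 most abundant genes and hides the falls of the rest.

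The same libraries often held the extremes. Control 1, the deepest library, was the lowest control for 7 of the 10 genes, and control 2 was the highest for 6. Labelled knockout 2 was the lowest of its group for 8 and knockout-labelled 1 the highest for 6. Coefficients of variation ran from 1.97% (Gpnmb) to 12.4% (Lgals3) in controls and from 1.48% (Gpnmb) to 13.7% (Mamdc2) in the knockout-labelled libraries.

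By distance between centred log2 CPM profiles over the 6 libraries, the named genes most like Mamdc2 were Epm2a (distance 0.37, log2 fold change -2.96), Bnip3 (0.50, -3.21) and Gipr (0.58, -2.73), out of 9425 candidates with a mean of at least 5 CPM. The 6 points of each profile fall into 2 groups, so the likeness is mainly one of fold change.

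The list of further disease-associated genes held 30, of which 25 could be tested. Of these, 14 fell, 5 rose and 6 were not called, with a median log2 fold change of -0.44, against 0.00 over all genes. The lipid carrier Apoe fell by 1.87, from 297, 376 and 369 CPM to 103, 89.1 and 92.6 CPM, with Itgax, an integrin subunit (-1.46), and Cd22, a sialic acid-binding lectin (-1.39), next. Trem2 (-0.83) and Tyrobp (-0.83), on which the programme depends in the brain, were also lower. Whether their levels bear on the other falls was not tested. The 5 that rose were the proton-sensing receptor Gpr65 (1.38, from 0.708 to 1.83 CPM), ferritin heavy chain Fth1 (0.68), the chemokine Ccl3 (0.56) and the cathepsins Ctsd (0.41) and Ctsb (0.23). Leaving out control 1 or knockout-labelled 2 ended the Gpr65 call (highest adjusted p = 0.0883, edgeR). Of 26 homeostatic microglia genes listed, 14 could be tested: 12 fell and 2 were not called, with a median of -0.57. The 12 without a test include defining markers: Tmem119, Sall1 and Olfml3 had too few counts, and P2ry12, P2ry13, Siglech, Gpr34 and Fcrls were not analysed here. The adhesion receptor Adgrg1 (-2.29), the small GTPase Rhob (-1.54), the receptor Csf1r (-1.46) and the AP-1 factor Jun (-1.19) fell furthest of those with a mean of at least 1 CPM. In the osteoclast marker list 4 of 5 tested genes fell.

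**Figure D5:**
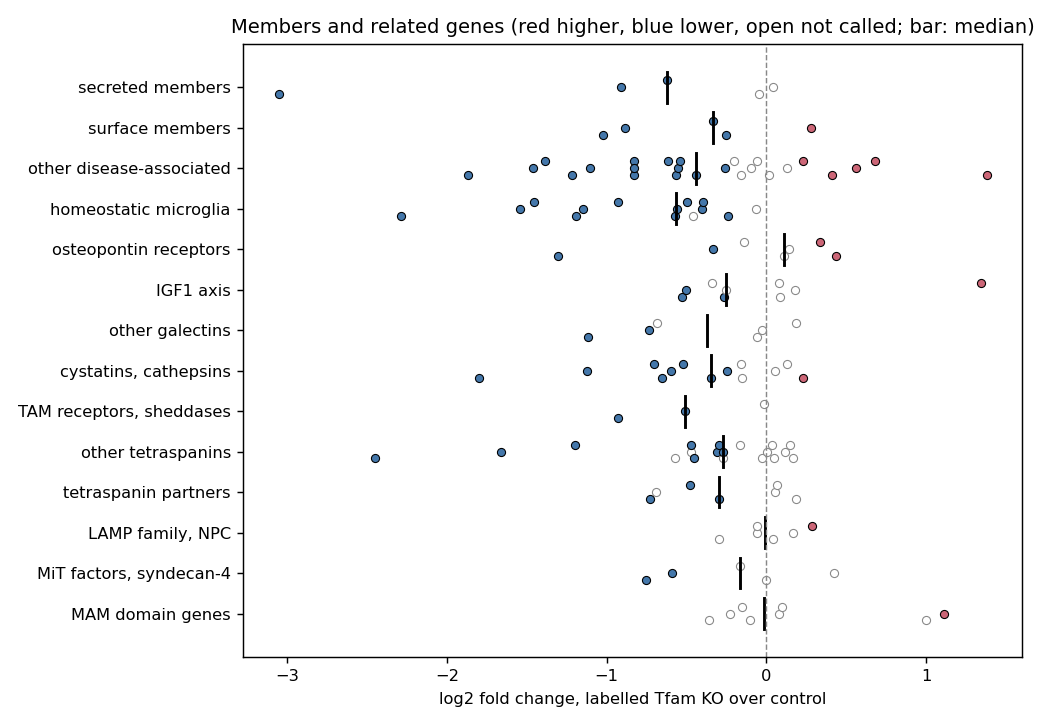
Log2 fold change of each tested gene in the lists of members and related genes, 1 point per gene (red, higher; blue, lower; open, not called at an adjusted p of 0.05), with the median of each list as a bar. The other disease-associated genes (median -0.44) and the homeostatic genes (median -0.57) lie mostly left of 0, and the LAMP family and MAM domain genes centre on 0.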

How the data were processed

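Poly(A) RNA of 6 BV2 libraries was sequenced. Per the labels' protocols, RNA was extracted with TRIzol and libraries were made with a NEBNext Ultra kit, which does not mark strand, so antisense partners cannot be separated. The submitters' processing notes name featureCounts 2.0.0, HISAT2 2.1.0, bcl2fastq 2.17, SAMtools 1.9 and build GRCm39. No source used here states how multi-mapping reads were counted. The deposited table holds raw read counts per gene. The authors' second table holds log2 values, each equal to log2 of a count scaled to a common library total plus 8.

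In R 4.3.3, edgeR 4.0.16 was fitted to the counts (filterByExpr, TMM, glmQLFit, glmQLFTest, no covariates) over all 6 libraries, with Benjamini-Hochberg adjustment over 13403 genes; 4469 were left untested. Each SE is the absolute log2 fold change divided by the root of F. The step was tested on simulated counts. The 10 genes and all lists were chosen with earlier results of these data known. Named are all 10, Tfam, up to 4 called genes per list with the largest change and at least 1 CPM, receptors and ligands of the 10, and the 3 genes nearest in profile to the member with the largest change (those for the smallest are not reported here); Trem2, Tyrobp, Fth1, Ccl3, Ctsd and Ctsb were chosen after their values were seen. Alternatives were DESeq2 1.42.0, limma-voom (limma 3.58.1), median-ratio factors, library totals, the replicate number as a block, no filter, a floor of 5 CPM in 3 libraries, limma fitted to the log2 table, each library left out, and, added after the data were seen, offsets for transcript length and GC content (GENCODE M21, GRCm38; 99.5% of tested genes matched by symbol).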

Additional observations from a re-analysis of the deposited data

How the results depend on the processing

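Of 150 values (10 genes under 15 alternatives), 133 kept their direction and their side of the threshold. Mamdc2, Cd9, Lgals3, Axl and Igf1 did so under all 15, with log2 fold changes of -3.17 to -2.91, -1.08 to -0.92, -1.0 to -0.78, -0.99 to -0.75 and -0.70 to -0.51. The other 17 belong to Cd63 (8), Gpnmb (3), Cd68 (1), Spp1 (3) and Cst7 (2). Spp1 changed sign with library totals (0.057), in the authors' log2 table (0.060) and without control 2 (0.056), and Cst7 without knockout-labelled 1 (-0.0050); none of these passed, and the cause was not tested. Members called higher numbered 1 in the main analysis, 0 with the replicate block, 2 with the length and GC offsets (Gpnmb and Cst7), and 0 to 1 with a library left out; members called lower numbered 5 to 7 with a library left out. The count of 0 with the block is by edgeR, where DESeq2 and limma-voom each called 1 without it. Deviations of same-numbered libraries from their group means had correlations of -0.10, -0.11 and 0.04. These values cannot settle whether the numbers mark pairs, which the labels leave unstated. With the replicate block 2501 genes were higher and 2754 lower, against 2859 and 3067 without it. With library totals alone 3834 were higher and 2372 lower, so higher genes made up 61.8% of calls against 48.2%, and the median of all genes moved to 0.10; in the authors' log2 table the share was 61.5%. Depth limits Pappa2, Itgb3, Gpr65 and Stfa1 among the genes named, with 3 to 47 counts per library.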
